A study of Mus musculus with 6 samples.

Results

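The circadian clock genes *Arntl*, *Clock*, *Npas2*, *Per1*, *Per2*, *Per3*, *Cry1*, *Nr1d1*, *Nr1d2* and *Dbp* were followed in the gastrocnemius, the large calf muscle, of HrasG12V and wild-type (WT) mice. They were taken by gene symbol and make up 10 of the 23997 symbols listed for each mouse. RNAseq was done on muscle from 3 HrasG12V mice (2276, 2278 and 2279) and 3 WT littermates (2277, 2280 and 2281), all 21 days old, with 1 library per mouse. The HrasG12V mice (Caggs-Cre+/HrasG12V/+) carried 1 activated *Hras* allele, a model of Costello syndrome, after Cre driven by the ubiquitous CAG promoter had recombined the floxed allele. The WT mice (Caggs-Cre-/HrasflG12V/+) carried the same floxed allele without recombination and no Cre, so the activated allele and the presence of Cre cannot be told apart. All mice were of a mixed background of 3 inbred strains, SWR/J and C57BL/6J among them. Levels are FPKM, fragment numbers corrected for transcript length and library size, scaled between libraries by Cuffnorm. Values per mouse are given in the order 2277, 2280, 2281 for WT and 2276, 2278, 2279 for HrasG12V.

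The clock is a feedback loop that runs in nearly every cell, skeletal muscle fibers included. ARNTL (BMAL1) pairs with CLOCK or its relative NPAS2 and switches on *Per*, *Cry*, *Nr1d* and *Dbp* by binding E-boxes, the PER and CRY proteins then inhibit that pair, and the NR1D proteins (REV-ERB alpha and beta) repress *Arntl*, *Clock* and *Npas2* through sites shared with the ROR activators. As a result the transcripts of *Arntl*, *Clock* and *Npas2* peak at about the opposite time of day from those of *Nr1d1*, *Dbp* and *Per3*, and the level of any of them in a tissue depends on the hour at which the tissue was taken. The sources used here give no hour of collection and each mouse was sampled once, so no phase or amplitude could be computed, and genotype and hour cannot be told apart. What could be compared was whether the activator transcripts and the transcripts of the opposite phase lay on opposite sides of WT in the same mice.

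The clearest differences between HrasG12V and WT muscle were in *Arntl* and *Npas2*, at 0.756 and 0.573 of the WT level, and in *Dbp*, at 3.21 times it, and none of them passed the adjusted p. *Arntl*, *Clock* and *Npas2* were below the WT range in 3 of 3 HrasG12V mice, and *Dbp* was above it in 3 of 3. *Per1*, *Per2*, *Per3*, *Cry1*, *Nr1d1* and *Nr1d2* overlapped between the genotypes. By limma on log2(FPKM + 0.1), 3 of the 10 genes had an unadjusted p below 0.05 (*Dbp* higher, *Arntl* and *Npas2* lower), against 10.2% of the 13359 genes tested, 5.18% higher and 4.99% lower. None of the 10 passed the adjusted p of 0.05, which 0.0599% of all genes did, and an ordinary unpaired test without limma's moderation also gave 0 adjusted and 3 unadjusted. With 3 against 3 mice an exact two-sided permutation test of a single gene cannot give a p under 0.1. All 3 HrasG12V mice were below all 3 WT mice in 10.4% of the genes tested and above them in 8.11%, so 18.5% did not overlap, against 4 of the 10 clock genes. The median log2 difference was -0.27 over the 10 clock genes and -0.03 over all genes tested.

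Promoter stretches from RefSeq (GRCm38.p6) are shown for *Arntl* and *Npas2*, the activators with the smallest p, for *Dbp*, and for *Per3* and *Nr1d1*, the other genes whose estimate was higher in HrasG12V muscle. Capitals mark letters that match a clock element on either strand, and positions count from the transcript start, with negative numbers before it. The *Arntl* stretch is chr7:113207530-113207558 (plus strand, bases 20 to 48 from the second of 2 starts) and holds a ROR element, TAGGTCA, the kind of site that NR1D and ROR proteins share. The *Nr1d1* stretch is chr11:98775378-98775627 (minus strand) and holds AACGTG, the reverse complement of the E-box variant CACGTT, at -28. The *Per3* stretch is chr4:151044666-151044915 (minus strand) and holds TTATGTAA, a D-box of the kind bound by DBP and its antagonist NFIL3, at -205 and -158. Neither the *Dbp* stretch, chr7:45704997-45705246 (plus strand), nor the *Npas2* stretch, chr1:39194022-39194271 (plus strand), holds any of the letters searched.
Arntl: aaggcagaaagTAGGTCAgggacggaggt
Npas2: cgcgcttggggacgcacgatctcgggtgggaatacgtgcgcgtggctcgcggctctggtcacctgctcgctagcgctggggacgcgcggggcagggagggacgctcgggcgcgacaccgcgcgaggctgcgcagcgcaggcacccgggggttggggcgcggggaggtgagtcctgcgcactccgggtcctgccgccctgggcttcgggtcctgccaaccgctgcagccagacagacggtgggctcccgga
Dbp: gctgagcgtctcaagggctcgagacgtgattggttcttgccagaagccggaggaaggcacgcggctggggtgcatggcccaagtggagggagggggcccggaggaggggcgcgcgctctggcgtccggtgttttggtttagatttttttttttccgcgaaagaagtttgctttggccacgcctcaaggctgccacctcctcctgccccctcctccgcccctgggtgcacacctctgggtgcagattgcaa
Per3: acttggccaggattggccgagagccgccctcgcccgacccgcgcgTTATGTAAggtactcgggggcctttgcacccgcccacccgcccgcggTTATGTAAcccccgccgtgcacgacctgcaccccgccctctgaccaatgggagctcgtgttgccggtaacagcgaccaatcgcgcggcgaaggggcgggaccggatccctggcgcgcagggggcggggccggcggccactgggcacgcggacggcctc
Nr1d1: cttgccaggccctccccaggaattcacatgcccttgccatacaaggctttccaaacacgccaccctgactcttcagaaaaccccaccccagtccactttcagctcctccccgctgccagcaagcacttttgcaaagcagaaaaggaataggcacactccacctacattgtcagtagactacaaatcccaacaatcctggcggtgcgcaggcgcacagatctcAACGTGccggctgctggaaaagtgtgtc

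Windows of 300 bases around the start were found for 9 of the 10 genes (*Per2* had none), 13 windows in all. The letters searched were CACGTG and CACGTT (E-boxes), TTACGTAA and TTATGTAA (D-boxes), TAGGTCA and TGGGTCA (ROR elements) and TGACGTCA (the CREB element), on both strands. Of the 32851 mouse windows of this length, CACGTG was in 7.15%, CACGTT in 4.68%, TAGGTCA in 2.61%, TGGGTCA in 3.98%, TTATGTAA in 0.938%, TTACGTAA in 0.119% and TGACGTCA in 1.79%. Besides the stretches shown, *Per1* held CACGTG at -166 from one of its starts, and *Cry1* held CACGTG at -60 and CACGTT at -79. A match describes the sequence only, since no binding was measured here.

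*Arntl* encodes the activator without which the molecular clock stops. It lies at 113207465 to 113314126 of chromosome 7 (plus strand) in GRCm38, the build used throughout. *Arntl* FPKM was 10.9, 11.8 and 11.3 in WT mice and 8.78, 8.50 and 8.40 in HrasG12V mice. The mice of each genotype lay close together and the groups did not overlap. The log2 difference was -0.40 (SE 0.13, 95% interval -0.71 to -0.09), a fold of 0.756, with an unadjusted limma p below 0.05 and an adjusted p of 0.435. The unadjusted p was above 0.05 when any 1 of the 3 WT mice was left out, where the difference was -0.43 to -0.37. It was also above 0.05 with all libraries scaled to equal totals (-0.41) and with each library's trend over transcript length removed (-0.28). Fewer of all genes had an unadjusted limma p below 0.05 in several of these fits. They were 631 without WT mouse 2277, 690 without WT mouse 2280 and 717 with equal totals, against 1358 in the main fit. A call lost there is thus not particular to *Arntl*.

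*Npas2*, a partner of ARNTL in place of CLOCK, is on chromosome 1 from 39193731 to 39363236 on the plus strand. Its FPKM was 2.06, 2.45 and 2.16 in WT mice and 1.04, 1.74 and 1.01 in HrasG12V mice. Mouse 2278 was the nearest to WT, and the other HrasG12V mice were at about equal levels. The log2 difference of -0.80 (SE 0.26, 95% interval -1.42 to -0.19) had an unadjusted limma p below 0.05 and an adjusted p of 0.435. Without WT mouse 2280, WT mouse 2281 or HrasG12V mouse 2279 the unadjusted p was above 0.05, with differences of -0.73, -0.82 and -0.68, as it was with equal totals (-0.81).

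*Clock*, the usual partner of ARNTL, is on chromosome 5 from 76209868 to 76304792 on the minus strand. Its FPKM was 9.88, 10.3 and 10.2 in WT mice and 5.63, 9.32 and 8.30 in HrasG12V mice. The groups did not overlap, but mouse 2278 was close to the lowest WT mouse, and the log2 difference of -0.41 (SE 0.21, 95% interval -0.91 to 0.09) had a limma adjusted p of 0.561. The difference was -0.20 without mouse 2276, -0.22 with libraries weighted by their fit, and -0.56 without mouse 2278, where the unadjusted p was below 0.05.

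*Dbp*, a PAR bZIP transcription factor that carries the clock's rhythm to output genes through D-boxes, is on chromosome 7 from 45705088 to 45710203 on the plus strand. *Dbp* FPKM was 6.50, 1.94 and 2.23 in WT mice and 11.5, 9.42 and 9.32 in HrasG12V mice. HrasG12V mice were alike, whereas WT mouse 2277 stood apart from the other WT mice and nearer to the HrasG12V level. *Dbp* had the largest log2 difference of the 10 genes, 1.68 (SE 0.44, 95% interval 0.63 to 2.74), a fold of 3.21, with an unadjusted limma p below 0.05 and an adjusted p of 0.382. Leaving out each mouse in turn gave 1.37 to 2.21, with an unadjusted p below 0.05 in 6 of 6 cases. With array weights, which weight each library by its fit, the difference was 1.47 and the unadjusted p was above 0.05. *Dbp* and *Npas2* are also among the genes that the study itself lists as differing in these libraries, so they are not independent evidence.

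Of the 2993 exonic bases of *Dbp*, 539 (18.0%) overlap the exons of *Sphk2*, a sphingosine kinase gene on the opposite strand, chosen after its values were seen. Whether reads were counted by strand is not stated in the sources used here. *Sphk2* FPKM was 9.77, 8.20 and 9.88 in WT mice and 14.8, 8.90 and 9.65 in HrasG12V mice. The genotypes overlapped (log2 difference 0.23, SE 0.23, limma adjusted p = 0.784), and mouse 2276 had the highest level of both *Sphk2* and *Dbp*, while *Sphk2* in mice 2278 and 2279 was within its WT range. The part of shared bases in the *Dbp* values was not tested.

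**Figure D1:**
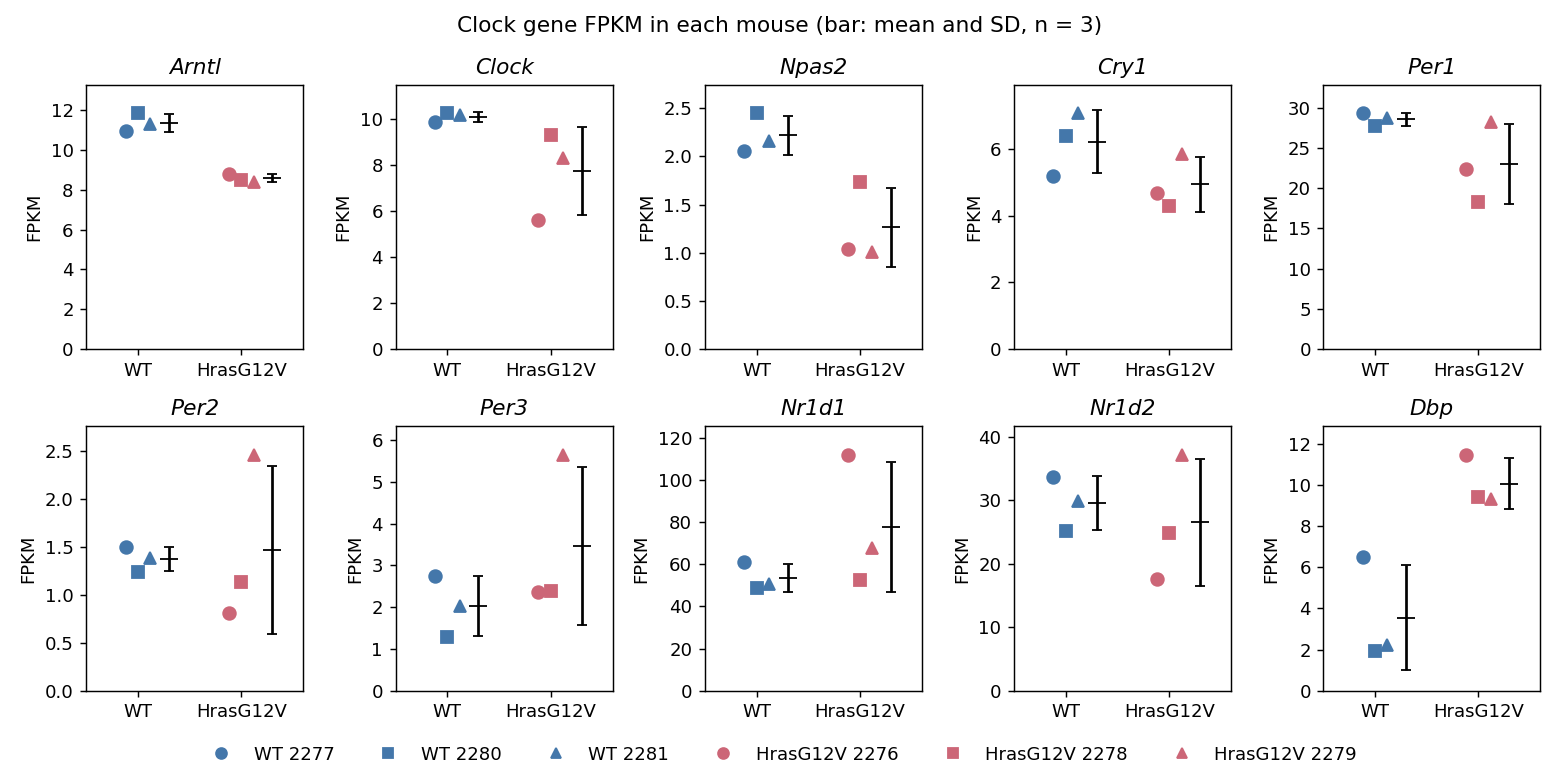
FPKM of the 10 clock genes in each WT (blue) and HrasG12V (red) mouse, with the mean and SD of each genotype (n = 3) as a black bar. *Arntl*, *Clock* and *Npas2* lie below WT in all 3 HrasG12V mice and *Dbp* lies above WT in all 3, while the other 6 genes overlap.

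*Nr1d1*, which encodes REV-ERB alpha, the main repressor of *Arntl*, was the most abundant of the 10 genes. Its FPKM was 60.9, 48.8 and 50.7 in WT mice and 112, 52.6 and 67.9 in HrasG12V mice. Mice 2276 and 2279 were above WT and mouse 2278 was within the WT range. The log2 difference was 0.47 (SE 0.31, 95% interval -0.27 to 1.21, limma adjusted p = 0.656), and it was 0.17 without mouse 2276, 0.71 without mouse 2278 and 0.17 with array weights. Of the 3077 exonic bases of *Nr1d1* (chromosome 11, 98767932 to 98775333, minus strand), 263 (8.55%) overlap the thyroid hormone receptor gene *Thra* on the opposite strand. *Thra* FPKM was 35.8, 36.2 and 47.0 in WT mice and 41.7, 31.4 and 34.2 in HrasG12V mice (log2 difference -0.15, limma adjusted p = 0.857), with mouse 2276 within the WT range. The part of shared bases in the *Nr1d1* values was not tested.

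*Nr1d2*, which encodes the related repressor REV-ERB beta (chromosome 14, 18204054 to 18239127, minus strand), had an FPKM of 33.7, 25.1 and 29.8 in WT mice and of 17.5, 24.8 and 37.2 in HrasG12V mice. The HrasG12V mice lay on both sides of WT, and the log2 difference was -0.21 (SE 0.30, 95% interval -0.93 to 0.50, limma adjusted p = 0.857). The ratio of *Nr1d1* to *Nr1d2* was 1.81, 1.94 and 1.70 in WT mice 2277, 2280 and 2281 and 2.12 and 1.83 in HrasG12V mice 2278 and 2279, but 6.40 in HrasG12V mouse 2276. Both repressor genes departed from WT in opposite directions in that mouse alone.

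The *Per* genes, whose products inhibit ARNTL and CLOCK, gave 3 different pictures. *Per1*, which is also induced acutely by several signals, had an FPKM of 29.3, 27.7 and 28.7 in WT mice and of 22.4, 18.3 and 28.2 in HrasG12V mice. It had a log2 difference of -0.33 (SE 0.20, 95% interval -0.81 to 0.15, limma adjusted p = 0.625), with mouse 2279 within the WT range, and was -0.18 without mouse 2278 and -0.49, with an unadjusted p below 0.05, without mouse 2279. *Per2* FPKM was 1.49, 1.24 and 1.39 in WT mice and 0.810, 1.13 and 2.46 in HrasG12V mice. The HrasG12V mice lay on both sides of WT (log2 difference -0.05, SE 0.40, 95% interval -1.0 to 0.90, limma adjusted p = 0.985). *Per3*, the member least required for the rhythm, had an FPKM of 2.75, 1.30 and 2.03 in WT mice and of 2.37, 2.39 and 5.65 in HrasG12V mice. Only mouse 2279 exceeded WT, and the log2 difference of 0.69 (SE 0.42, 95% interval -0.31 to 1.69) had a limma adjusted p of 0.626. It was 0.28 without mouse 2279 and 0.42 without WT mouse 2280.

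*Cry1*, the strongest of the inhibitors of ARNTL and CLOCK and later in phase than the *Per* genes, had an FPKM of 5.19, 6.39 and 7.06 in WT mice and of 4.67, 4.28 and 5.85 in HrasG12V mice. The groups overlapped through mouse 2279 (log2 difference -0.33, SE 0.19, limma adjusted p = 0.611). By mean FPKM over the 6 mice the order was *Nr1d1*, *Nr1d2*, *Per1*, *Arntl*, *Clock*, *Dbp*, *Cry1*, *Per3*, *Npas2* and *Per2*, from the 95.7th to the 52.0th percentile of all symbols. None of the 10 was listed at 0 in any library.

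**Figure D2:**
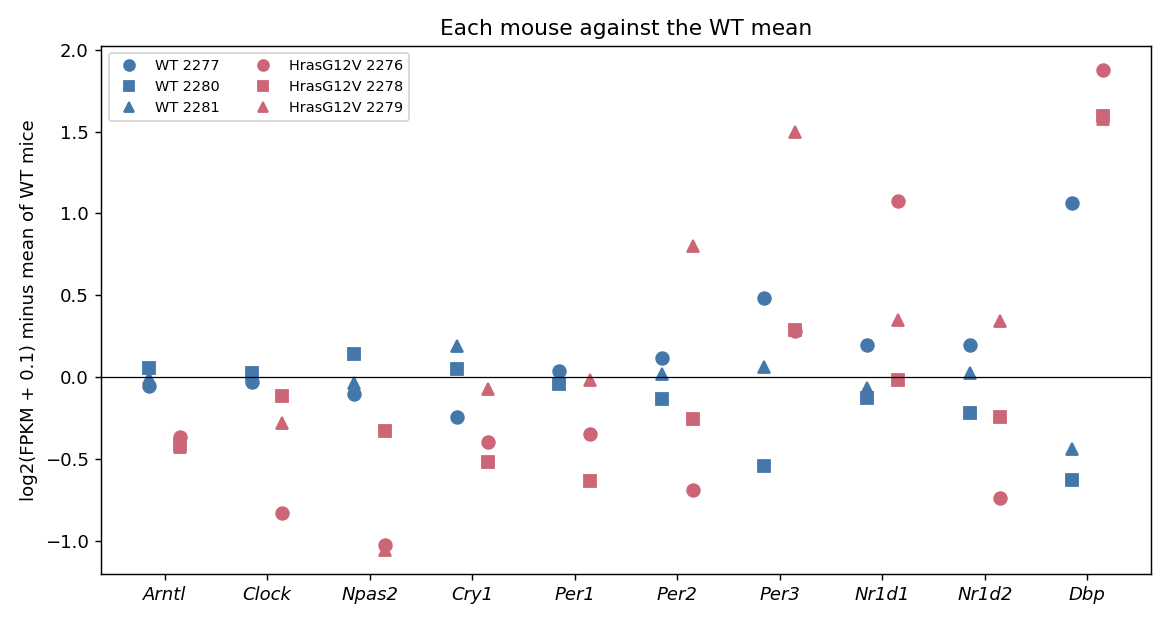
Difference of each mouse from the WT mean, in log2(FPKM + 0.1), for the 10 clock genes, with WT mice in blue and HrasG12V mice in red. HrasG12V points are below the zero line for *Arntl*, *Clock*, *Npas2*, *Per1* and *Cry1*, above it for *Per3* and *Dbp*, and on both sides of it for *Per2*, *Nr1d1* and *Nr1d2*.

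The WT mice themselves differed along the 2 arms of the clock. *Per1*, *Per2*, *Per3*, *Nr1d1*, *Nr1d2* and *Dbp* were each highest in WT mouse 2277, next in 2281 and lowest in 2280, an order that 14.4% of the genes tested had. *Arntl*, *Clock* and *Npas2* each had the reverse order, which 12.9% of the genes tested had. *Cry1* was highest in 2281 and lowest in 2277. None of the 15 other clock genes tested had either order. The steps were small for most of these genes. The highest WT mouse was 3.34 times the lowest for *Dbp* and 2.12 times for *Per3*, but 1.34 times for *Nr1d2*, 1.25 times for *Nr1d1*, 1.21 times for *Per2*, 1.19 times for *Npas2*, 1.08 times for *Arntl*, 1.06 times for *Per1* and 1.04 times for *Clock*, where the median over the genes tested was 1.19. Without counts, an order within steps of this size cannot be set against counting error.

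HrasG12V mice had no such common order. *Per2*, *Per3* and *Nr1d2* were highest in mouse 2279 and lowest in 2276, *Dbp* and *Arntl* were highest in 2276 and lowest in 2279, and *Nr1d1* was highest in 2276 and lowest in 2278. *Clock* and *Npas2* were highest in 2278. The spread between HrasG12V mice was wider than between WT mice over the whole transcriptome, with a median SD of 0.42 against 0.13 in log2 over the genes tested. *Arntl* and *Dbp* went against that pattern, as the SD of *Arntl* was 0.03 in HrasG12V and 0.06 in WT mice and that of *Dbp* was 0.17 and 0.93.

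As a summary of both arms, the mean log2(FPKM + 0.1) of *Arntl*, *Clock* and *Npas2* was subtracted from that of *Per1*, *Per2*, *Per3*, *Nr1d1*, *Nr1d2* and *Dbp* in each mouse. This difference was 0.83, 0.07 and 0.37 in WT mice 2277, 2280 and 2281 and 1.41, 0.83 and 1.77 in HrasG12V mice 2276, 2278 and 2279. WT mouse 2277 and HrasG12V mouse 2278 were level, and the other HrasG12V mice were above every WT mouse. The mean was 0.42 ± 0.39 (SD, n = 3) in WT and 1.34 ± 0.47 (SD, n = 3) in HrasG12V mice, 0.91 apart. The activator mean was 2.63, 2.77 and 2.68 in WT and 1.95, 2.41 and 2.10 in HrasG12V mice in the same order, without overlap. The mean of the opposite arm was 3.46, 2.83 and 3.05 in WT and 3.36, 3.24 and 3.87 in HrasG12V mice, with overlap through WT mouse 2277. Genes of the opposite arm had no common direction. The log2 difference was 1.68 for *Dbp*, 0.69 for *Per3* and 0.47 for *Nr1d1*, but -0.33 for *Per1*, -0.21 for *Nr1d2* and -0.05 for *Per2*. As the genes were chosen with these data known, the summary is a description without a test.

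**Figure D3:**
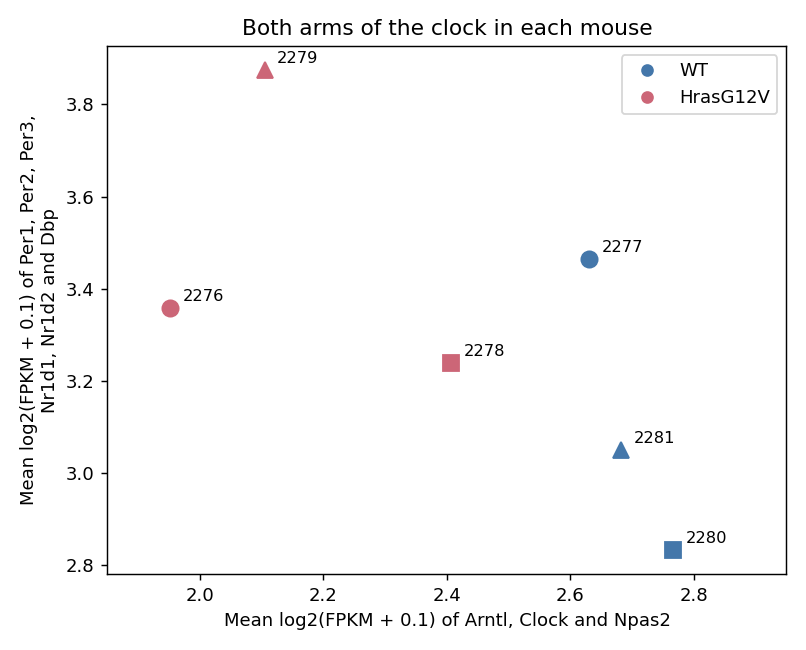
Mean log2(FPKM + 0.1) of *Arntl*, *Clock* and *Npas2* (x axis) against that of *Per1*, *Per2*, *Per3*, *Nr1d1*, *Nr1d2* and *Dbp* (y axis), 1 point per mouse, with WT in blue and HrasG12V in red. HrasG12V mice lie to the left of WT mice (1.95 to 2.41 against 2.63 to 2.77), and on the y axis the genotypes overlap.

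Levels of the opposite arm were also set against *Arntl* in the same mouse. As *Arntl* itself was lower in every HrasG12V mouse, the ratio to it was above all WT mice in all 3 HrasG12V mice for 33.8% of the genes tested, and nothing is read from a count of such ratios. The ratio of *Dbp* to *Arntl* was 0.594, 0.164 and 0.197 in WT mice 2277, 2280 and 2281 and 1.31, 1.11 and 1.11 in HrasG12V mice 2276, 2278 and 2279, without overlap. The ratio of *Nr1d1* to *Arntl* was 5.57, 4.13 and 4.49 in WT and 12.8, 6.18 and 8.09 in HrasG12V mice, also without overlap. That of *Per1* to *Arntl* was 2.68, 2.34 and 2.54 in WT and 2.55, 2.16 and 3.36 in HrasG12V mice, which overlapped. The ratio of *Per3* to *Arntl* was 0.251, 0.110 and 0.179 in WT and 0.270, 0.281 and 0.673 in HrasG12V mice, without overlap. Those of *Per2* (0.105 to 0.137 in WT, 0.0922 to 0.293 in HrasG12V) and *Nr1d2* (2.13 to 3.08 in WT, 2.0 to 4.43 in HrasG12V) overlapped. *Per1* lay below WT together with *Arntl* in mice 2276 and 2278.

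The rest of the oscillator was taken from a list of 17 further clock genes, of which 15 passed the filter on low values (*Rorb* and *Fbxl21* did not). *Nfil3*, the D-box repressor that opposes DBP, was the only gene of the list with an unadjusted p below 0.05, against 10.2% of all genes tested. *Nfil3* FPKM was 20.0, 26.5 and 29.6 in WT mice and 18.0, 8.26 and 10.6 in HrasG12V mice. Its log2 difference was -1.10 (SE 0.32, limma adjusted p = 0.407), with no overlap. *Nfil3* passed the adjusted p with array weights (-1.33, limma adjusted p = 0.041) and without HrasG12V mouse 2276 (-1.41, limma adjusted p = 0.020). These 2 settings are close to one another, as array weights gave mouse 2276 the lowest weight (0.093, against 0.73 to 3.29). Many more of all genes passed there, 572 with array weights against 8 at equal weight. *Nfil3* too is in the study's own tables of genes that differ in these libraries.

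Relatives of DBP that bind the same site overlapped between the genotypes, and their difference from *Dbp* was not tested. *Tef* was at 40.6 to 57.5 FPKM in WT and 44.1 to 75.8 FPKM in HrasG12V mice (log2 difference 0.19, 95% interval -0.44 to 0.83), and *Hlf* at 1.0 to 1.53 and 0.849 to 1.86 FPKM (-0.02, -0.83 to 0.78). *Cry2* (0.18, -0.37 to 0.72) and the ARNTL and CLOCK repressor gene *Ciart* (-0.06, -0.94 to 0.82), which is usually in phase with *Nr1d1* and *Dbp*, overlapped between the genotypes. So did *Bhlhe40* (log2 difference 0.22, 95% interval -0.24 to 0.68) and *Bhlhe41* (-0.06, -0.64 to 0.52), repressors that compete at E-boxes. *Rora* (-0.26, -1.12 to 0.60), an activator that shares sites with the REV-ERB proteins, did so as well. Without HrasG12V mouse 2279 *Rora* was at -0.68 with an unadjusted p below 0.05, and without mouse 2276 at -0.037 and without mouse 2278 at -0.051. The median of the 15 genes was -0.06 in log2, near the -0.03 of all genes tested, and all HrasG12V mice were below all WT mice for *Nfil3* and *Fbxw11*, an F-box protein gene, 2 of 15 against 10.4% of all genes tested.

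**Figure D4:**
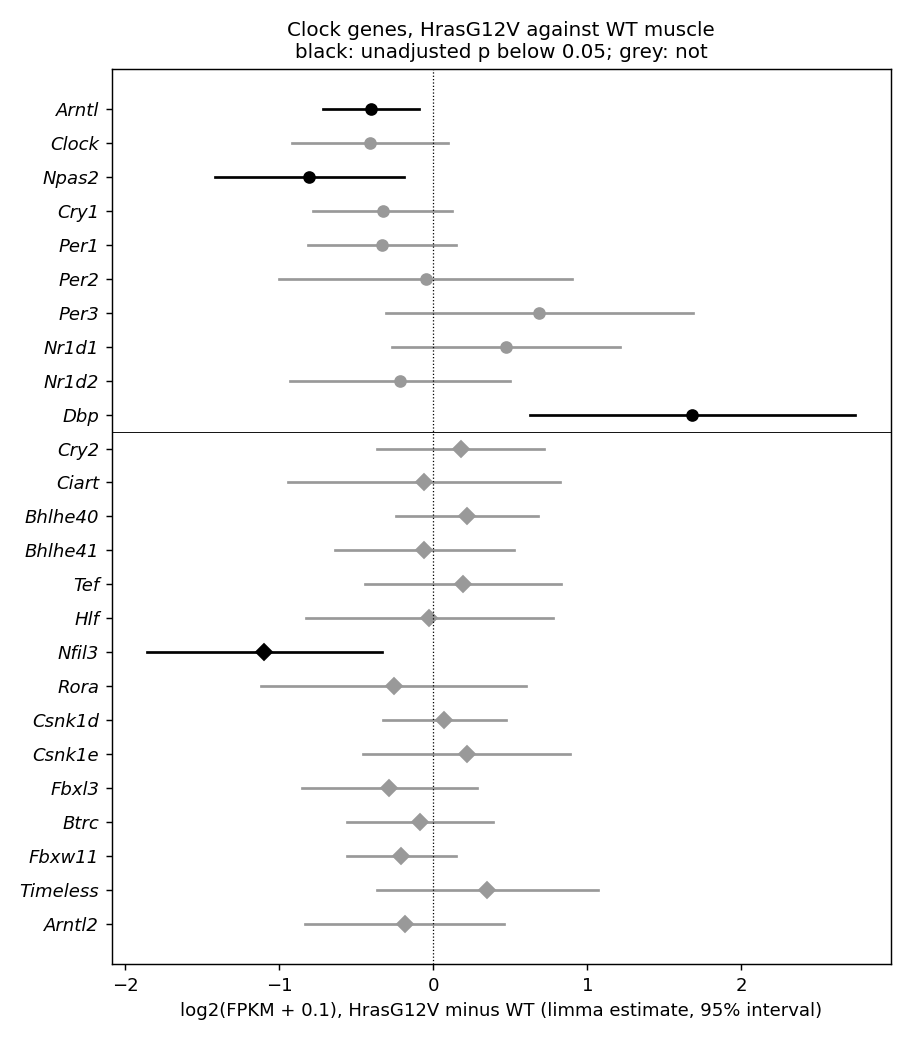
Log2 difference between HrasG12V and WT muscle, in log2(FPKM + 0.1), with limma's 95% interval for the 10 clock genes (circles, upper part) and 15 further clock genes (diamonds, lower part). Black marks an unadjusted p below 0.05, which *Arntl*, *Npas2*, *Nfil3* (lower) and *Dbp* (higher) had, and no gene shown passed the adjusted p.

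Genes whose level followed *Arntl* and *Dbp* most closely over the 6 mice were sought among 12154 genes with a mean of at least 1 FPKM, outside the clock lists. For *Arntl* they were *Jam2* (Pearson r = 0.990), *Sik1* (0.987), *Ap1s2* (0.981), *Prrc1* (0.978) and *Gas2* (0.977). For *Dbp* they were *Snord16a* (0.991), *Mir6915* (0.981), *Bin3* (0.977), *Prpsap2* (0.968) and *Rrp1b* (0.967), the first 2 of them small RNA genes listed at 0 in WT mice 2280 and 2281. An r of at least 0.95 was reached by 36 genes (0.296%) for *Arntl* and by 10 (0.0823%) for *Dbp*. The 6 points share the genotype difference, so these values describe likeness only.

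Some features of the libraries moved with the genotypes. Total FPKM was 413020 to 814013, highest in mouse 2276, with a median of 6.39 to 6.64 over the genes tested. *Hras* FPKM ranged from 16.0 to 58.8 in HrasG12V and from 36.0 to 51.8 in WT mice (log2 difference -0.44, SE 0.47, limma adjusted p = 0.797), and as the mutant allele is read from the same gene this level does not check the genotype. Of 9 muscle fiber markers, 3 to 5 were listed at 0 per library (*Acta1*, *Myh4* and *Atp2a1* in all 6, *Ckm* in 5 and *Tnnt3* in mouse 2276), and the sum of the 9 was 13383 to 22760 FPKM. The 8 lymphocyte markers summed to 92.4 and 81.9 FPKM in HrasG12V mice 2278 and 2279, 2.32 in 2276 and 1.29 to 1.62 in WT mice. Of the 8, 7 had an unadjusted limma p below 0.05, all higher, against 5.18% of all genes tested. Adipocyte markers (827 to 1001 against 407 to 734 FPKM) summed higher. *Fabp4* made up most of that sum (713 to 769 against 395 to 678 FPKM, log2 difference 0.39, SE 0.33). Of the 7 markers, *Cfd*, *Fabp4* and *Retn* were above every WT mouse in all 3 HrasG12V mice and *Cfd* and *Retn* had an unadjusted limma p below 0.05 (3 of 7 and 2 of 7, against 8.11% and 5.18% of all genes tested), while *Adipoq*, *Cidec*, *Plin1* and *Lep* overlapped. The sum was lower for endothelial markers (104 to 117 against 137 to 163 FPKM), with *Cdh5* and *Tie1* below all WT mice and at an unadjusted p below 0.05 and *Kdr* and *Pecam1* overlapping. That is 2 of 4, against 10.4% of all genes tested below all WT mice and 4.99% lower by the unadjusted limma p. For the 4 Schwann cell markers (226 to 615 against 133 to 370 FPKM) the genotypes overlapped and all differences were positive. *Pmp22* had an unadjusted p below 0.05, 1 of 4 against 5.18% of all genes tested. The share of these cell types in the clock gene values was not tested, and in whole muscle fewer cells of a type and less RNA per cell cannot be told apart.

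Y-linked transcripts summed to 0.170 FPKM in WT mouse 2277 and 0.0922 FPKM in HrasG12V mouse 2276, and to 70.7 to 80.0 FPKM in the other 4 mice. The mouse at these near-zero sums had the highest *Dbp* of its genotype in both groups. Among the mice with Y-linked transcripts (2 against 2) the log2 difference between genotypes was 2.12 for *Dbp*, -0.45 for *Arntl* and -0.74 for *Npas2*, and between the mice without (1 against 1) it was 0.81, -0.31 and -0.92, the same sign in each. For *Per2* (0.33 and -0.81), *Per3* (1.13 and -0.20) and *Nr1d2* (0.15 and -0.94) the sign differed between these strata. The stratum without holds a single mouse of each genotype, and mouse 2276 also differed by transcript length, as given below. A sign in that stratum cannot be told apart from that trend or from the spread between mice. With the Y-linked sum as a covariate, limma gave 1.67 for *Dbp*, -0.40 for *Arntl* and -0.80 for *Npas2*, each with an unadjusted p below 0.05.

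Mouse 2276 differed from the other libraries by transcript length. Set against the mean of the WT mice, genes of this library had a median log2 difference of 0.52 in the shortest of 4 equal classes of exonic length and 0.18, -0.06 and -0.38 in the next, while the other 5 libraries stayed between -0.12 and 0.02. *Clock*, with the longest exonic sequence of the 10 at 13727 bases, was 0.83 below the WT mean in this mouse, where genes of like length (within 25%) had a median of -0.50. *Arntl* (7523 bases) was at -0.37 against -0.24 for genes of like length. *Npas2* (-1.02 against 0.01), *Nr1d1* (1.07 against 0.25) and *Dbp* (1.88 against 0.26) differed more from the WT mean than the median gene of like length. So did *Nr1d2* (-0.74 against -0.05), *Per2* (-0.69 against -0.09), *Per1* (-0.35 against -0.07) and *Cry1* (-0.39 against 0.20), all below the WT mean. *Per3* was at 0.28 against -0.35. The spread of the genes of like length was not measured. In mice 2278 and 2279 *Arntl* was at -0.41 and -0.43, with genes of like length at -0.07 and -0.01. With each library's trend over length removed, a step added after seeing the data, the log2 difference was -0.28 for *Arntl*, which lost its call at an unadjusted limma p of 0.05, -0.75 for *Npas2* and 1.66 for *Dbp*, which kept theirs, -0.21 for *Clock*, 0.85 for *Per3* and 0.45 for *Nr1d1*.

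**Figure D5:**
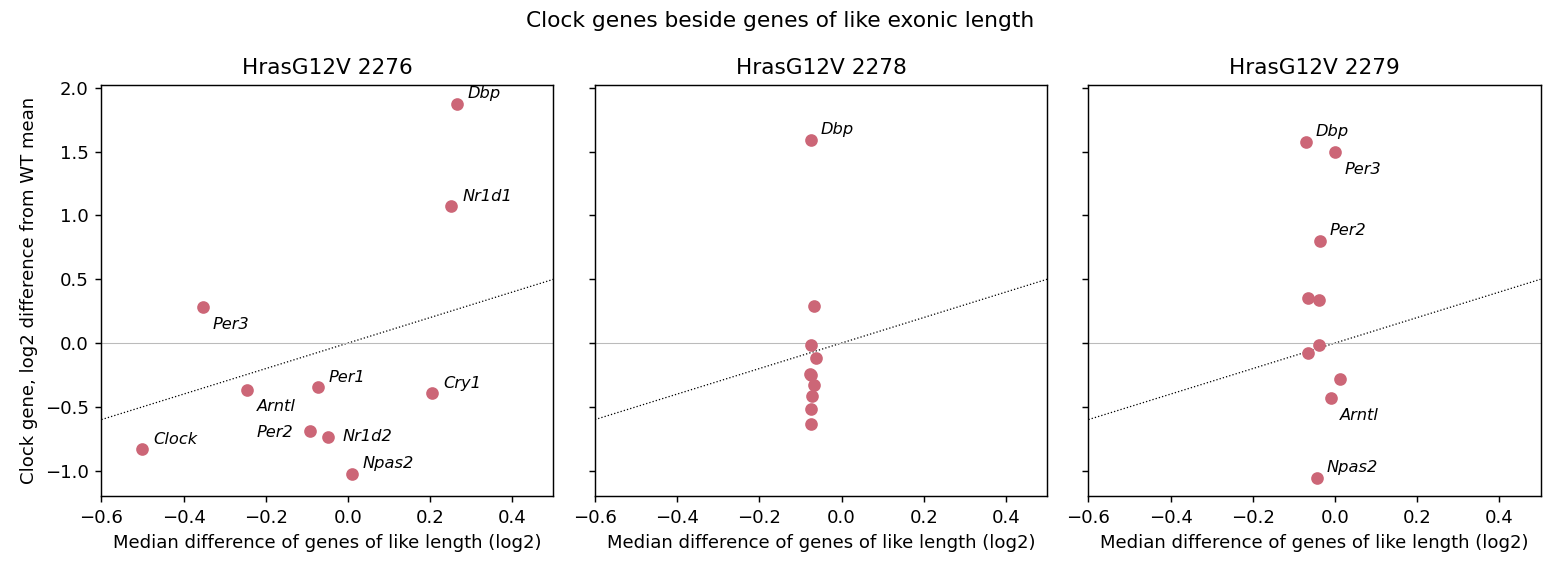
Log2 difference of each clock gene from the WT mean (y axis) against the median difference of genes of like exonic length (x axis) in the 3 HrasG12V mice, with a dotted line where both are equal. In mouse 2276 the medians span -0.50 (*Clock*) to 0.26 (*Dbp*), and in mice 2278 and 2279 they lie near 0, with *Dbp* at 1.59 and 1.58 above the WT mean.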

How the data were processed

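RNA from gastrocnemius muscle of 6 mice was sequenced from KAPA stranded mRNA libraries. The authors mapped reads with TopHat and used Cufflinks and Cuffnorm to deposit 1 FPKM value per gene symbol and mouse. The submitters' processing notes name bcl2fastq, TopHat, Cufflinks and Cuffnorm without versions, and the builds GRCm38 and mm10. Cuffnorm scales libraries to each other, and no whole reads could be recovered from the low values. The methods give a nominal depth only, so no counting intervals were made and precision rests on the spread between mice. The WT mice were littermates of the HrasG12V mice, but the sources used here do not say which mouse came from which litter, or give hour of collection, sex or batch, and p-values measure the spread between these mice only.

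The 13359 genes that averaged 0.5 FPKM or more were compared as log2(FPKM + 0.1) by limma (version 3.58.1, R version 4.3.3, moderated with a trend, all 6 mice, no covariate). P-values were adjusted over all genes tested by the Benjamini-Hochberg method. Folds are on the log2(FPKM + 0.1) scale, which understates changes of low genes. Members and lists were chosen with earlier results of these data known. Named were the 10 members, genes of the further lists with an unadjusted p below 0.05, the clock genes nearest in role to the members (*Cry2*, *Ciart*, *Tef*, *Hlf*, *Nfil3*, *Bhlhe40*, *Bhlhe41*, *Rora*), the 5 genes with the highest Pearson r to *Arntl* and to *Dbp*, and *Thra*. Results for 1 further gene of the lists are not reported here. Markers, *Hras*, *Sphk2*, *Fbxw11*, *Por*, *Tcap*, *Usp2* and *Myod1* were named besides, the last 6 after their values were seen. Gene positions and exonic lengths came from a GRCm38 annotation (length for 95.6% of the genes tested) and promoters from RefSeq. Alternatives were pseudocounts of 1 and 0.01, no filter, a filter at a mean FPKM of 1, quantile normalization, median centring, equal totals, no moderation, array weights, a Y-linked covariate, leaving out each mouse and, added after seeing the data, removal of the length trend. Python 3.11.15 with numpy 2.4.6, matplotlib 3.10.9 and pandas 2.3.3 was used for tables and plots.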

Additional observations from a re-analysis of the deposited data

How the results depend on the processing

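Of 170 log2 differences of the 10 clock genes under alternatives, 149 kept their direction and their side of an unadjusted limma p of 0.05, 10 lost the call, 4 gained one and 7 changed sign. The number of the 10 past the unadjusted p was 2 to 4 under the other settings and 1 to 4 when each mouse was left out, with 1 without WT mouse 2280 and 1 without WT mouse 2281. The number past the adjusted p was 0 throughout. For the further clock genes the number was 2 with no filter, 2 without moderation and 1 to 3 when each mouse was left out (2 without HrasG12V mouse 2276, 2 without 2278 and 3 without 2279). The difference between the arms was 0.73 to 0.94 under the other settings and 0.70 to 1.17 when each mouse was left out. *Arntl* and *Npas2* also lost their call with equal totals, and *Dbp* lost its call with array weights (1.47). The adjusted limma p over the alternatives was 0.0916 to 0.993 for *Dbp*, 0.0511 to 1.0 for *Arntl* and 0.136 to 0.993 for *Npas2*. *Clock* gained a call without HrasG12V mouse 2278, *Per1* without HrasG12V mouse 2279, and *Nr1d1* with quantile normalization and with equal totals. *Per2* changed sign with a pseudocount of 1 (0.0011), array weights (0.15) and the length trend removed (0.040), *Hlf* with array weights (0.18) and the length trend removed (0.082), and *Bhlhe41* with the length trend removed (0.050). Leaving out each mouse gave log2 differences on both sides of 0 for *Per2* (-0.47 to 0.27), *Nr1d2* (-0.49 to 0.049), *Hlf* (-0.31 to 0.22), *Bhlhe41* (-0.22 to 0.14), *Cry2* (-0.065 to 0.31), *Ciart* (-0.34 to 0.23) and *Tef* (-0.016 to 0.38). *Ciart* had no value with a filter at a mean FPKM of 1, and the cause of these changes was not tested. Over all genes, 4006 had an unadjusted limma p below 0.05 and 1374 an adjusted one without HrasG12V mouse 2276, and 3042 and 572 with array weights, against 1358 and 8 with all mice at equal weight. In these 2 fits, 3 and 2 of the 10 clock genes had an unadjusted p below 0.05, no clear excess over all genes. None of the 10 clock genes was among the genes past the adjusted p in either case, while *Nfil3*, *Ucp3*, *Zbtb16* and *Sik1* were in both. The 2 fits are close to one another, as array weights gave mouse 2276 the lowest weight (0.093). Fewer of all genes had an unadjusted limma p below 0.05 without WT mouse 2277 (631), without WT mouse 2280 (690) and with equal totals (717). With equal totals *Nampt*, *Wee1* and *Sik1* lost the call at the unadjusted p, and *Wee1* lost it in 6 of 11 settings that kept all mice. No paired analysis was possible because the sources used here do not say which mice of the 2 genotypes shared a litter.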

Other observations

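Transcripts that follow the clock or daily feeding in muscle were lower in HrasG12V muscle for part of a list of 8 genes. By limma, 4 of the 8 had an unadjusted p below 0.05, all lower, where 4.99% of all genes were lower, and 0 passed the adjusted p, though *Ucp3* passed it with array weights and without HrasG12V mouse 2276 (limma adjusted p = 0.020 in both). Of the others, *Por*, a cytochrome P450 reductase gene, was above all WT mice in all 3 HrasG12V mice (10.2 to 11.9 against 8.77 to 9.29 FPKM, log2 difference 0.27), and *Tcap* (0.25), *Usp2* (-0.45) and *Myod1* (-0.27) overlapped. *Ucp3*, a mitochondrial carrier of muscle that rises with fatty acid supply, had an FPKM of 120, 80.6 and 128 in WT mice 2277, 2280 and 2281 and of 37.1, 13.9 and 28.1 in HrasG12V mice 2276, 2278 and 2279 (log2 difference -2.14, SE 0.40). *Pdk4*, a kinase that restrains glucose oxidation, was at 681 to 1241 and 101 to 405 FPKM (-2.07, SE 0.55). *Nampt*, the NAD-synthesis enzyme and a target of ARNTL and CLOCK, was at 38.8 to 43.4 and 26.7 to 30.8 FPKM (-0.54, SE 0.16), and *Wee1*, a cell cycle kinase under the clock, was at 2.20 to 3.10 and 1.57 to 1.93 FPKM (-0.49, SE 0.20). The groups did not overlap for these 4 genes, where 10.4% of all genes were below all WT mice. *Wee1* lost its call in 6 of 6 fits that left out a mouse, and *Nampt* without WT mouse 2277 (-0.55) or WT mouse 2281 (-0.50). In the 2 fits where *Ucp3* passed the adjusted p, many more of all genes did, 572 with array weights against 8 at equal weight.

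Of 9 glucocorticoid-responsive genes, 8 had a negative log2 difference (median -0.55, against -0.03 over all genes tested), and all but *Zbtb16* overlapped between the genotypes. *Zbtb16*, a transcription factor gene, was the only one with an unadjusted limma p below 0.05, at 27.4 to 35.7 FPKM in WT and 16.2 to 17.6 FPKM in HrasG12V mice (-0.88, SE 0.17, adjusted p = 0.288), 1 of 9 against 10.2% of all genes tested. *Zbtb16* passed the adjusted p with array weights (limma adjusted p = 0.038) and without HrasG12V mouse 2276 (limma adjusted p = 0.026). Of 11 immediate early genes, 9 had a positive difference (median 0.45), and 2 had an unadjusted limma p below 0.05, against 10.2% of all genes tested. All but *Sik1* overlapped between the genotypes. *Junb* was at 7.38 to 12.4 FPKM in WT and 11.7 to 29.0 FPKM in HrasG12V mice (1.05, SE 0.37), with an unadjusted limma p below 0.05 but with overlap, and it lost the call without WT mouse 2277 (0.97), WT mouse 2281 (0.91), HrasG12V mouse 2276 (0.74) or HrasG12V mouse 2278 (1.03). *Junb* also lost the call without moderation (1.05) and with array weights (0.81). *Sik1*, a salt-inducible kinase that restrains light-induced shifts of the clock and one of the genes most like *Arntl* over the mice, was lower, at 12.3 to 13.3 and 8.02 to 8.73 FPKM (-0.59, SE 0.13), also with an unadjusted p below 0.05, which it lost with equal totals, and it passed the adjusted p with array weights (limma adjusted p = 0.037) and without HrasG12V mouse 2276 (limma adjusted p = 0.025). In the 2 fits where *Zbtb16* and *Sik1* passed the adjusted p, many more of all genes did, 572 with array weights against 8 at equal weight. *Ucp3*, *Pdk4*, *Zbtb16* and *Sik1* are in the study's own tables of genes that differ in these libraries, so their direction is not independent evidence.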
